A study of Mus musculus with 6 samples.

Results

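A set of 38 autophagy and lysosome genes was taken from a list by name, with no threshold on a measured value but with earlier results of these data known, and followed in the mouse heart ventricle with and without the chaperone gene Hspa4. Of the 38 listed genes, 36 had a named probe set among the 20239 named genes of the array. Atg4a and Optn were not analysed here. By role, the 36 genes were 12 of initiation and membrane supply, 13 of the conjugation systems, 2 cargo receptors, 5 lysosomal proteins and 4 transcription factors. No filter on low values was applied, so every measured gene was tested.

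Autophagy wraps cytosolic material in a double membrane, the autophagosome, and delivers it to the lysosome for digestion. A kinase complex built on Ulk1 and a lipid kinase complex built on Becn1 start the membrane, and ubiquitin-like conjugation couples Map1lc3 and Gabarap proteins to it. Receptors such as Sqstm1 then tie ubiquitin-tagged cargo to these proteins. Tfeb and Tfe3, and in muscle Foxo3, switch on many of these genes. In heart muscle cells, which are rarely replaced, autophagy is known to remove protein aggregates and damaged mitochondria.

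The arrays carried ventricle RNA of male 129/Sv mice aged 3.5 weeks, 3 labelled Hspa4-/- and 3 labelled Hspa4+/+. Per the labels there were 3 mice for each genotype, and each array was taken as 1 mouse. The labels name no surgery, drug or Cre driver, and they do not say how Hspa4 was disrupted. Values were deposited on the log2 scale. A difference subtracts the Hspa4+/+ mean from the mean over the arrays labelled Hspa4-/-, so a positive value is higher in the latter. In bulk tissue, fewer cells of a type and less RNA per cell cannot be told apart.

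Promoter sequence is shown for the members that carry CACGTG, the core of the element bound by Tfeb and Tfe3. RefSeq windows of GRCm38.p6, running from 250 bases before to 50 bases after the annotated start, were matched by symbol for 31 of the 38 listed genes, of which 29 were measured. The names without a window were Map1lc3a, Becn1, Rb1cc1, Atg12, Ctsb, Atg16l1 and Pik3c3. CACGTG, searched on both strands, was in the windows of 7 members (22.6%), Atg14, Atg3, Atg5, Atg7, Ctsd, Ctsl and Lamp1. Over all 32851 windows the share was 7.15%, and over the 15651 array genes with a window it was 9.47%. The longer GTCACGTG, which contains CACGTG, was in 5 members (16.1%), namely Atg14, Atg3, Atg7, Ctsd and Lamp1, against 2.25% of all windows and 3.44% of array genes. The forkhead motif TGTTTAC, also searched on both strands, was in 0 of the 31 members, against 3.65% of all windows and 3.53% of array genes. A gene with several windows was counted once as a gene, and the 31 members had 37 windows. A match describes these letters only and does not show binding.

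The following stretches, read 5′ to 3′ on the gene's strand with CACGTG in capitals, show how differently the motif is placed. Lamp1 (chr8:13159080-13159171, plus strand) held 4 copies, the nearest beginning 15 bases before the start. Ctsd (chr7:142387900-142388077, minus strand) held 2 copies, beginning 245 and 98 bases before it. Atg3 (chr16:45158715-45158783, plus strand) held 2, beginning 94 and 71 bases before it. Atg14 (chr14:47568410-47568455, minus strand), Atg7 (chr6:114670944-114670989, plus strand), Atg5 (chr10:44268305-44268350, plus strand) and Ctsl (chr13:64370731-64370770, minus strand) held 1 copy each.
Lamp1: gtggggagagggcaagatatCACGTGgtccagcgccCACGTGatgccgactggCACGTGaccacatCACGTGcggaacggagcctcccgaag
Ctsd: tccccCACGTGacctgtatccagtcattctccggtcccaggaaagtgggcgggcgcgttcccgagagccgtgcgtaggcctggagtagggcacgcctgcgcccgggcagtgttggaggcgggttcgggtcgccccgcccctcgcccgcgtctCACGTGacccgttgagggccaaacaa
Atg3: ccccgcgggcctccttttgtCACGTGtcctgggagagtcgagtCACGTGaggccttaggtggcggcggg
Atg14: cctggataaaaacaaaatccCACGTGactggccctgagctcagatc
Atg7: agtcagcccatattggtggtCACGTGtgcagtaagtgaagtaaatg
Atg5: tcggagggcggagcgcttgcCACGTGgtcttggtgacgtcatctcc
Ctsl: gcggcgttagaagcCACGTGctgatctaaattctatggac

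Array means lay between 6.76 and 6.77 and SDs between 1.19 and 1.27. Precision is limited by having 3 arrays a group. Hspa4 itself read 9.33, 6.63 and 6.75 on the arrays labelled Hspa4-/- and 9.74, 9.50 and 9.48 on the Hspa4+/+ arrays. The array labelled Hspa4-/- replicate 1 therefore goes against its label. It also read 7.68 for Xist, a transcript of female cells, against 5.51 to 5.69 on the other arrays, although all mice are labelled male. The Y-linked Uty read 7.92 there against 8.15 to 8.57 on the other arrays, and the Y-linked Eif2s3y read 7.96 against 8.23 to 8.39. Both Y-linked values were nearer to those of the other arrays than to the lowest value on that array, 4.81. Whether it held RNA of 1 mouse was not tested. Differences are given on all 6 arrays and on the 5 left without it. Cardiomyocyte markers were high on every array, with a mean over 10 genes of 12.20 to 12.25 on the arrays labelled Hspa4-/- and 12.08 to 12.17 on the Hspa4+/+ arrays. The skeletal muscle list averaged 6.02 to 6.14 and 6.02 to 6.16, and the lymphocyte list 5.84 to 5.97 and 5.92 to 6.06. On 6 arrays the difference was above 0 for 9 of 10 cardiomyocyte markers (median 0.07) and 6 of 8 endothelial markers (median 0.13). It was above 0 for 4 of 8 fibroblast markers (median 0.00) and 2 of 13 macrophage and monocyte markers (median −0.09), against 45.8% of all genes. Their part in the values below was not tested.

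On 6 arrays, 0 of the 36 autophagy and lysosome genes passed an adjusted p of 0.05 (limma, Benjamini-Hochberg over 20239 genes), and 0% of all genes did. Hspa4 itself did not pass there, at −2.01 (SE 0.58, adjusted p = 0.263). On 5 arrays it passed, at −2.89 (SE 0.10, adjusted p = 9.4e-06). At an unadjusted p under 0.05, 7 of 36 (19.4%) were called against 11.2% of all genes. Of these, 4 were higher on the arrays labelled Hspa4-/- (Atg13, Atg9a, Map1lc3a and Foxo3, against 5.64% of genes) and 3 were lower (Rb1cc1, Atg12 and Atg4c, against 5.53%). The difference was above 0 for 25 of 36 members (69.4%), against 45.8% of all genes. Its median was 0.10 over the members and −0.01 over all genes. The groups did not overlap for 6 members (15.1% of genes), of which 3 had all arrays labelled Hspa4-/- above (6.08% of genes) and 3 had them below (9.07% of genes). These shares of all genes include dim genes. With the lowest 50% of genes by mean level left out, all 36 members stayed. There 5 members had an unadjusted p under 0.05 against 15.7% of genes, and 6 did not overlap against 19.5%. The median over the genes left was 0.02.

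On 5 arrays, 89 genes of the whole array passed the adjusted threshold (0.44%) and again 0 of the 36 members did. At an unadjusted p under 0.05 there were 5 members against 14.9% of all genes. Atg13, Uvrag and Foxo3 were the 3 higher ones (8.55% of genes), and Rb1cc1 and Atg4c the 2 lower ones (6.36% of genes). The difference was above 0 for 25 of 36 members against 43.3% of genes, with a median of 0.09 against −0.02. The groups did not overlap for 9 members (33.3% of genes), 6 with the arrays labelled Hspa4-/- above (14.4%) and 3 with them below (18.9%). The shares at an unadjusted p and without overlap on 5 arrays thus lay near or under those of all genes.

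**Figure D1:**
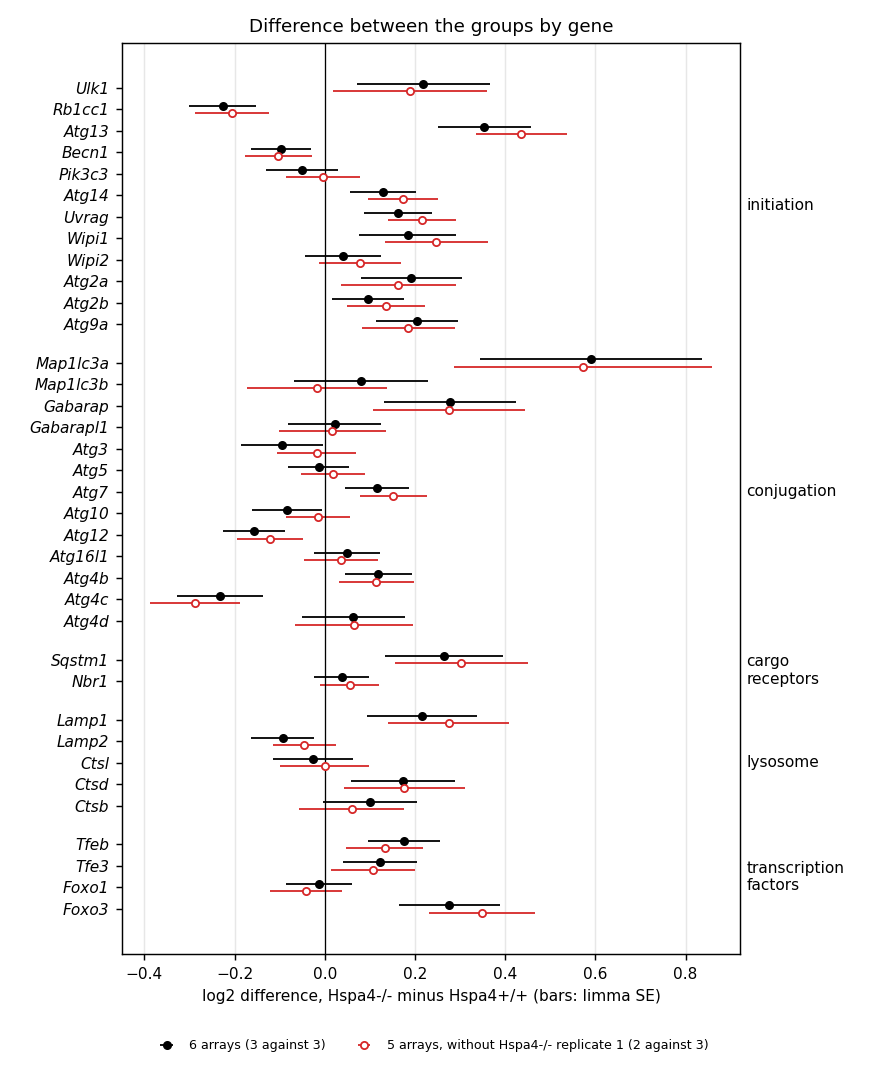
Difference in log2 value between the groups for each of the 36 measured genes, ordered by role, with positive values higher on the arrays labelled Hspa4-/-. Black points are 6 arrays, open red points are 5 arrays without the array labelled Hspa4-/- replicate 1, and bars are limma SEs. Map1lc3a lies farthest to the right at 0.59 with an SE of 0.25, and Atg4c and Rb1cc1 lie farthest to the left at −0.23 on 6 arrays.

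Among the 12 initiation genes, 9 had a difference above 0 on 6 arrays and the median was 0.15, with 0 past the adjusted threshold. In the Ulk1 kinase complex, Atg13, which ties Ulk1 to its partners, read 9.19, 9.50 and 9.36 on the arrays labelled Hspa4-/- and 8.88, 9.18 and 8.93 on the Hspa4+/+ arrays, replicates 1 to 3 in order. All 3 of the former lay above all 3 of the latter, although replicate 1 of the former and replicate 2 of the latter were almost level. Its difference was 0.35 (SE 0.10, adjusted p = 0.266) on 6 arrays and 0.44 (SE 0.10, adjusted p = 0.0999) on 5.

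Rb1cc1, the large scaffold protein of the same complex also called Fip200, had a difference below 0. It read 8.53, 8.66 and 8.52 on the arrays labelled Hspa4-/- and 8.88, 8.81 and 8.70 on the Hspa4+/+ arrays. The lowest Hspa4+/+ value was above the highest of the others, again by a small step. Its difference was −0.23 (SE 0.07, adjusted p = 0.298) on 6 arrays and −0.21 (SE 0.08, adjusted p = 0.293) on 5. Ulk1, the kinase itself, had a difference of 0.22 (SE 0.15) on 6 arrays and 0.19 (SE 0.17) on 5, and its groups overlapped because Hspa4+/+ replicate 2 read 8.95, the highest of the 6 arrays.

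In the lipid kinase complexes, Uvrag and Atg14, the alternative partners of Becn1, were the members that stood apart between the groups. Uvrag read 7.95, 8.08 and 8.15 on the arrays labelled Hspa4-/- and 7.94, 7.95 and 7.81 on the Hspa4+/+ arrays. Replicate 1 of the former was nearly level with replicates 1 and 2 of the latter. Its difference was 0.16 (SE 0.08, adjusted p = 0.47) on 6 arrays and 0.22 (SE 0.08, adjusted p = 0.239) on 5. Atg14, the partner that directs the complex to autophagosome formation, differed by 0.13 (SE 0.07) on 6 arrays and 0.17 (SE 0.08) on 5, also without overlap. Becn1 differed by −0.10 (SE 0.07) on either set, and the catalytic subunit Pik3c3 by −0.05 (SE 0.08) on 6 arrays and −0.0043 (SE 0.08) on 5, both with overlapping groups.

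Atg9a, the membrane protein whose vesicles seed the autophagosome, read 8.31, 8.19 and 8.31 on the arrays labelled Hspa4-/- and 7.94, 8.26 and 8.00 on the Hspa4+/+ arrays. The groups overlapped only through Hspa4+/+ replicate 2, which lay above replicate 2 of the other group. Its difference was 0.20 (SE 0.09, adjusted p = 0.446) on 6 arrays and 0.18 (SE 0.10, adjusted p = 0.448) on 5. The lipid transfer proteins Atg2a and Atg2b differed by 0.19 (SE 0.11) and 0.09 (SE 0.08) on 6 arrays and by 0.16 (SE 0.13) and 0.14 (SE 0.09) on 5. The phosphoinositide-binding proteins Wipi1 and Wipi2 differed by 0.18 (SE 0.11) and 0.04 (SE 0.08) on 6 arrays and by 0.25 (SE 0.11) and 0.08 (SE 0.09) on 5. For all 4 the groups overlapped, and in each Hspa4+/+ replicate 2 was the highest array of its group.

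**Figure D2:**
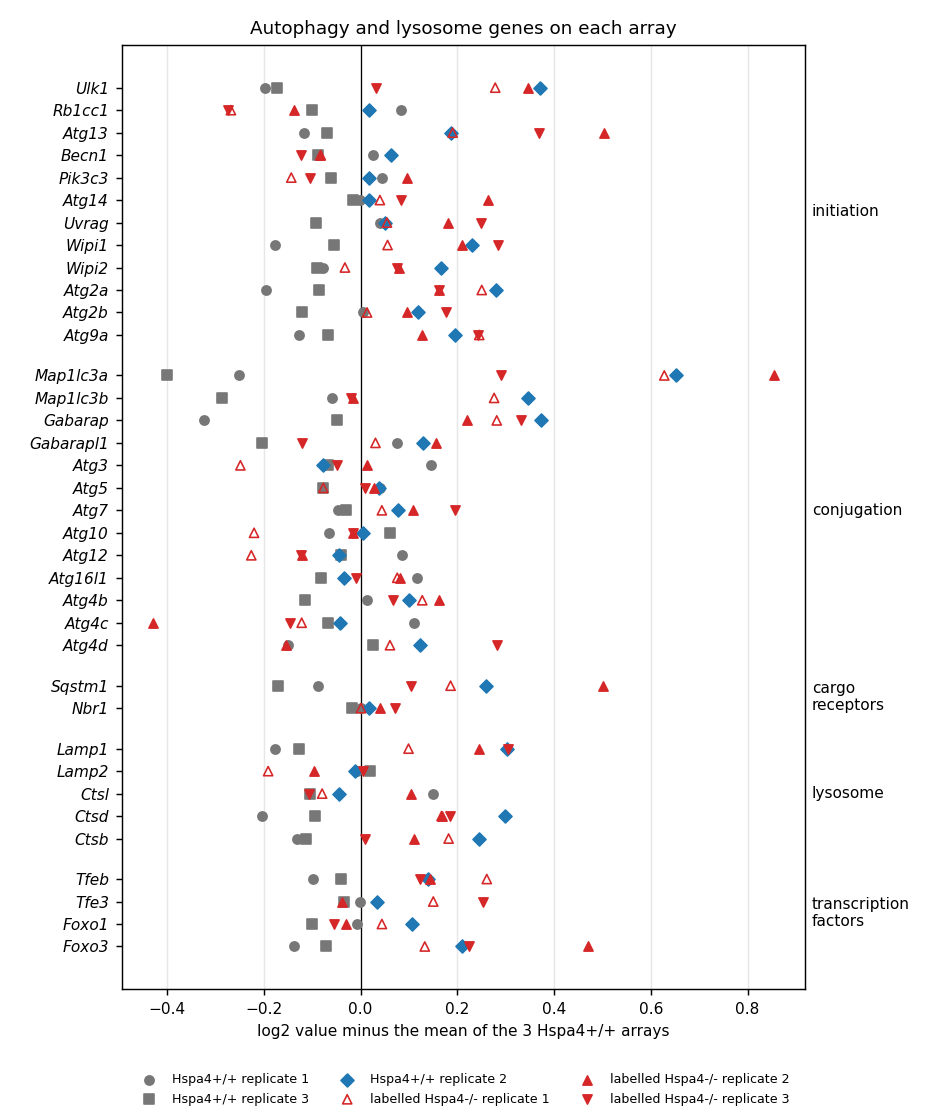
Value of each of the 36 measured genes on every array, as log2 relative to the gene's mean over the Hspa4+/+ arrays, ordered by role and marked by group and replicate. Hspa4+/+ replicate 2 sits at or beyond the arrays labelled Hspa4-/- for genes such as Ulk1, Gabarap, Map1lc3b and Ctsd, while Hspa4+/+ replicates 1 and 3 sit to the left.

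The 13 conjugation genes had a median difference of 0.05 on 6 arrays, with 8 above 0, and 0 passed the adjusted threshold. Map1lc3a, one of the LC3 proteins that are coupled to lipid on the autophagosome, had the largest difference of the 36 genes. It read 8.68, 8.90 and 8.34 on the arrays labelled Hspa4-/- and 7.80, 8.70 and 7.65 on the Hspa4+/+ arrays. Hspa4+/+ replicate 2 stood 0.98 above the mean of the other arrays of its group and within the range of the arrays labelled Hspa4-/-. The difference was 0.59 (SE 0.25, adjusted p = 0.415) on 6 arrays and 0.57 (SE 0.29, adjusted p = 0.399) on 5.

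The other LC3 family members did not separate the groups. Map1lc3b differed by 0.08 (SE 0.15) on 6 arrays and −0.02 (SE 0.16) on 5, so its sign rested on the array labelled Hspa4-/- replicate 1, where it read 10.06 against 9.77 on replicates 2 and 3. Gabarap differed by 0.28 (SE 0.15) and Gabarapl1 by 0.02 (SE 0.10) on 6 arrays, and by 0.28 (SE 0.17) and 0.02 (SE 0.12) on 5. For Gabarap the Hspa4+/+ values were 8.13, 8.83 and 8.41, so that replicate 2 lay above the 8.68 to 8.79 of the arrays labelled Hspa4-/-.

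Lower values were found for Atg4c and Atg12. Atg4c, a protease that processes the LC3 and Gabarap proteins, read 6.87, 6.57 and 6.85 on the arrays labelled Hspa4-/- and 7.10, 6.95 and 6.93 on the Hspa4+/+ arrays. The groups did not overlap, and replicate 2 of the first group was lowest. Its difference was −0.23 (SE 0.09, adjusted p = 0.404) on 6 arrays and −0.29 (SE 0.10, adjusted p = 0.23) on 5. Its paralogs Atg4b and Atg4d differed by 0.12 (SE 0.07) and 0.06 (SE 0.11) on 6 arrays and by 0.11 (SE 0.08) and 0.06 (SE 0.13) on 5, with overlap.

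Atg12, the ubiquitin-like protein that is joined to Atg5, read 7.36, 7.47 and 7.47 on the arrays labelled Hspa4-/- and 7.67, 7.54 and 7.55 on the Hspa4+/+ arrays. Every value of the first group was below every value of the second. The difference was −0.16 (SE 0.07, adjusted p = 0.441) on 6 arrays and −0.12 (SE 0.07, adjusted p = 0.484) on 5. The other conjugation enzymes and Atg5 with its partner Atg16l1 had differences of at most 0.12 in size on 6 arrays. Atg7, the activating enzyme of both systems, differed by 0.12 (SE 0.07), Atg3 by −0.10 (SE 0.09), Atg10 by −0.08 (SE 0.08), Atg5 by −0.01 (SE 0.07) and Atg16l1 by 0.05 (SE 0.07). On 5 arrays these were 0.15 for Atg7, −0.02 for Atg3 and for Atg10, 0.02 for Atg5 and 0.04 for Atg16l1. Their groups overlapped on 6 arrays, and Atg7 had no overlap on 5.

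Of the cargo receptors, Sqstm1 (p62) binds ubiquitin-tagged protein and is itself degraded by autophagy. It read 9.94, 10.26 and 9.86 on the arrays labelled Hspa4-/- and 9.67, 10.01 and 9.58 on the Hspa4+/+ arrays. In each group replicate 2 was highest, and Hspa4+/+ replicate 2 lay above replicates 1 and 3 of the other group. The difference was 0.26 (SE 0.13, adjusted p = 0.5) on 6 arrays and 0.30 (SE 0.15, adjusted p = 0.385) on 5.

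Nbr1, a receptor of similar domain layout, read 8.85, 8.89 and 8.92 on the arrays labelled Hspa4-/- and 8.85, 8.87 and 8.83 on the Hspa4+/+ arrays. All 6 arrays fell in a narrow band. Its difference was 0.04 (SE 0.06, adjusted p = 0.887) on 6 arrays and 0.05 (SE 0.07, adjusted p = 0.751) on 5, where the groups did not overlap.

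The 5 lysosomal members had a median difference of 0.10 on 6 arrays and 0.06 on 5, and the groups overlapped for all 5 on either set. Lamp1, a major glycoprotein of the lysosomal membrane and the gene with the 4 CACGTG copies above, read 9.68, 9.83 and 9.89 on the arrays labelled Hspa4-/- and 9.41, 9.89 and 9.46 on the Hspa4+/+ arrays. Hspa4+/+ replicate 2 was as high as the highest of the others. Its difference was 0.22 (SE 0.12, adjusted p = 0.571) on 6 arrays and 0.27 (SE 0.13, adjusted p = 0.383) on 5.

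Lamp2, needed for the fusion of autophagosomes with lysosomes, read 9.52, 9.62 and 9.72 on the arrays labelled Hspa4-/- and 9.70, 9.70 and 9.73 on the Hspa4+/+ arrays. The first group spread more widely and reached into the second. Its difference was −0.09 (SE 0.07, adjusted p = 0.695) on 6 arrays and −0.05 (SE 0.07, adjusted p = 0.807) on 5. The proteases Ctsd, Ctsb and Ctsl differed by 0.17 (SE 0.12), 0.10 (SE 0.10) and −0.03 (SE 0.09) on 6 arrays, and by 0.18 (SE 0.13), 0.06 (SE 0.12) and −0.00066 (SE 0.10) on 5. Ctsd read between 11.30 and 11.32 on the arrays labelled Hspa4-/- but 10.93, 11.44 and 11.04 on the Hspa4+/+ arrays, so its spread came from the Hspa4+/+ group.

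Among the transcription factors, Foxo3 had the largest difference. It read 8.45, 8.79 and 8.54 on the arrays labelled Hspa4-/- and 8.18, 8.53 and 8.24 on the Hspa4+/+ arrays. Hspa4+/+ replicate 2 lay between replicates 1 and 3 of the other group, so there was no overlap on 5 arrays. The difference was 0.28 (SE 0.11, adjusted p = 0.406) on 6 arrays and 0.35 (SE 0.12, adjusted p = 0.221) on 5.

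Its relative Foxo1 read 8.78, 8.71 and 8.69 on the arrays labelled Hspa4-/- and 8.73, 8.85 and 8.64 on the Hspa4+/+ arrays. The values were interleaved. The difference was −0.01 (SE 0.07, adjusted p = 0.973) on 6 arrays and −0.04 (SE 0.08, adjusted p = 0.851) on 5. Tfeb and Tfe3 differed by 0.18 (SE 0.08) and 0.12 (SE 0.08) on 6 arrays and by 0.13 (SE 0.09) and 0.11 (SE 0.09) on 5, with overlap.

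The members with CACGTG in the window and those whose window lacked it had similar median differences. On 6 arrays the 7 with the motif had a median difference of 0.12 (from −0.10 to 0.22, 4 above 0), and the 22 measured members whose window lacked it also had a median of 0.12 (from −0.23 to 0.35, 18 above 0). On 5 arrays the medians were 0.15 (5 above 0) and 0.12 (17 above 0). The 7 members without a window, Map1lc3a among them, had a median of −0.05 on 6 arrays and −0.0043 on 5, with 3 above 0 on each. These are descriptions, and the difference between the sets was not tested.

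One array shaped many of these values. Hspa4+/+ replicate 2 was the highest of the 3 Hspa4+/+ arrays for 26 of the 36 members and the lowest for 3, while over all genes it was highest for 32.5%. It lay more than 0.2 above the mean of Hspa4+/+ replicates 1 and 3 for 15 members (41.7%), against 8.92% of all genes. It lay more than 0.2 below that mean for 0 members, against 6.60% of all genes. After Map1lc3a, its largest steps above the other arrays of its group were 0.56 for Ulk1 and for Gabarap, 0.52 for Map1lc3b and 0.45 for Lamp1 and for Ctsd. The median of the members relative to their Hspa4+/+ means was 0.11 on that array, −0.03 and −0.08 on Hspa4+/+ replicates 1 and 3, and 0.06, 0.11 and 0.07 on the arrays labelled Hspa4-/-. Over all genes, Hspa4+/+ replicate 2 correlated at 0.991 to 0.992 with the arrays labelled Hspa4-/-, and highest with their replicate 1. It correlated at 0.991 to 0.992 with Hspa4+/+ replicates 1 and 3 as well, so it was no closer to either group. Hspa4+/+ replicates 1 and 3 correlated at 0.986 to 0.990 with the arrays labelled Hspa4-/- and at 0.994 with each other.

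For 21 members all 3 arrays labelled Hspa4-/- lay above Hspa4+/+ replicates 1 and 3, a pattern held by 14.8% of all genes. In 18 of these 21 Hspa4+/+ replicate 2 was at or above the lowest array labelled Hspa4-/-, which was so in 59.0% of all genes with the pattern. The 3 exceptions were Atg13, Atg14 and Uvrag. The opposite pattern, all 3 arrays below Hspa4+/+ replicates 1 and 3, was held by Rb1cc1, Atg12 and Atg4c, and by 16.7% of all genes.

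Values without Hspa4+/+ replicate 2 follow. That array was singled out after its values on these members were seen, so the values are no independent evidence. With the other 5 arrays, Map1lc3a alone of the members passed, at 0.92 (SE 0.15, limma, adjusted p = 0.0445), a 1.89-fold higher mean, while 0.553% of all genes passed. At an unadjusted p under 0.05 there were then 15 members (14.8% of genes), and 24 had no overlap (31.5% of genes).

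Dropping the array labelled Hspa4-/- replicate 1 too leaves 4 arrays, 2 against 2. There 6 members passed and all 6 were higher on the arrays labelled Hspa4-/-, while 4.32% of all genes passed. All 6 were among the 15 members on which Hspa4+/+ replicate 2 lay more than 0.2 above the other Hspa4+/+ arrays. Leaving it out raises their differences, so neither this count nor its direction is independent evidence. Map1lc3a differed by 0.90 (SE 0.16, adjusted p = 0.0226), Atg13 by 0.53 (SE 0.08, adjusted p = 0.0157) and Lamp1 by 0.43 (SE 0.08, adjusted p = 0.0235). Foxo3 differed by 0.45 (SE 0.10, adjusted p = 0.0394), Gabarap by 0.46 (SE 0.10, adjusted p = 0.0453) and Wipi1 by 0.36 (SE 0.08, adjusted p = 0.0466). At an unadjusted p under 0.05 there were 17 members (20.4% of genes), and 24 had no overlap (52.4% of genes). The number of members past the adjusted threshold therefore ran from 0 to 6 with the arrays used. With only Hspa4+/+ replicate 1 left out, 1 member, Atg13, had an unadjusted p under 0.05, against 6.17% of all genes.

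**Figure D3:**
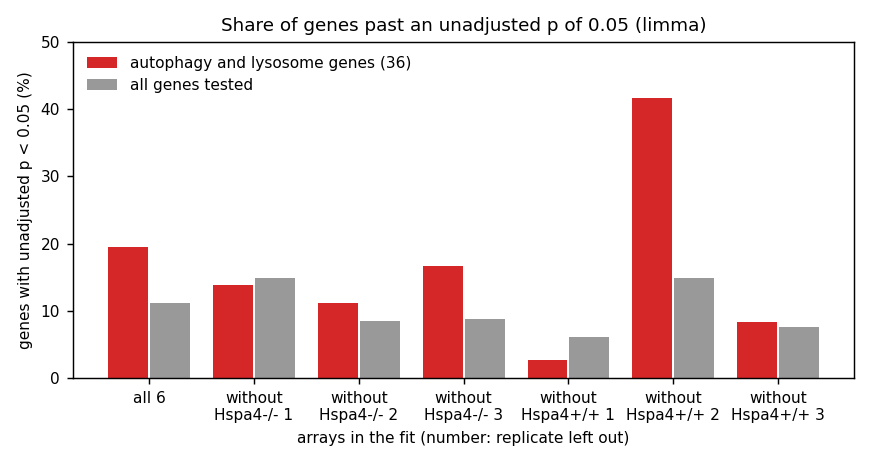
Percent of the 36 autophagy and lysosome genes (red bars) and of all genes tested (grey bars) with an unadjusted limma p under 0.05, on all 6 arrays and with each array left out in turn. The bars stand at 19.4% and 11.2% on 6 arrays, at 13.9% and 14.9% without the array labelled Hspa4-/- replicate 1, and at 41.7% and 14.8% without Hspa4+/+ replicate 2.

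A further 144 genes of the same pathways, from lists chosen by function, had 0 genes past the adjusted threshold on 6 or on 5 arrays. At an unadjusted p under 0.05, 11 were higher and 9 lower on 6 arrays (13.9% together, against 11.2% of all genes), and 16 were higher and 7 lower on 5 (16.0%, against 14.9%). These shares were near those of all genes, of which 5.64% were higher and 5.53% lower on 6 arrays and 8.55% and 6.36% on 5. Their median difference was 0.02 on 6 arrays, against 0.10 over the 36 members, and 0.04 on 5 arrays, against 0.09. Of 23 other genes of the autophagy machinery, 2 were higher and 1 lower at an unadjusted p under 0.05. Vmp1, an endoplasmic reticulum protein needed for autophagosome formation, differed by −0.23 (SE 0.07, adjusted p = 0.264), while Ambra1, a Becn1 partner, differed by 0.26 (SE 0.08, adjusted p = 0.275). Rubcn, which restrains the Uvrag complex, differed by 0.26 (SE 0.11, adjusted p = 0.433). In all 3 the groups did not overlap, and on 5 arrays the differences were −0.22, 0.32 and 0.33.

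Among 16 other cargo and mitophagy receptors, 2 were higher and 0 lower at an unadjusted p under 0.05 (5.64% and 5.53% of all genes). Fkbp8, a mitochondrial outer membrane receptor, differed by 0.29 (SE 0.10, adjusted p = 0.318) and Calcoco1, a receptor for endoplasmic reticulum, by 0.20 (SE 0.08, adjusted p = 0.361), both without overlap, and by 0.33 and 0.21 on 5 arrays. Bnip3, a mitophagy receptor induced by hypoxia, differed by −0.17 (SE 0.10, adjusted p = 0.587) on 6 arrays and −0.13 (SE 0.11) on 5, with overlap.

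The 34 other lysosomal proteases and hydrolases held Ctsc, the gene with the lowest value of the difference among the related lists. At an unadjusted p under 0.05, 1 was higher and 4 were lower on 6 arrays, against 5.64% and 5.53% of all genes, and the list's median was 0.01 with 18 of 34 above 0. Ctsc (cathepsin C, which activates serine proteases of immune cells) read 8.38, 8.24 and 8.12 on the arrays labelled Hspa4-/- and 8.95, 8.59 and 8.72 on the Hspa4+/+ arrays. Its groups did not overlap, and its difference was −0.50 (SE 0.10, adjusted p = 0.21) on 6 arrays and −0.57 (SE 0.11, adjusted p = 0.0626) on 5. Lipa, the lysosomal acid lipase, differed by −0.38 (SE 0.10, adjusted p = 0.245) and Ctsk, a collagen-cutting cathepsin, by −0.29 (SE 0.09, adjusted p = 0.289), also without overlap, and by −0.46 and −0.31 on 5 arrays.

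Markers of macrophages and monocytes, cells rich in lysosomal hydrolases, are given beside these values. Of 13 measured markers, 0 passed the adjusted threshold on 6 or 5 arrays. On 6 arrays 5 were lower (against 5.53% of all genes) and 1 was higher (against 5.64%) at an unadjusted p under 0.05, and 6 had all arrays labelled Hspa4-/- below the Hspa4+/+ arrays (against 9.07%). The mean of the list was 7.05 to 7.09 on the arrays labelled Hspa4-/- and 7.17 to 7.26 on the Hspa4+/+ arrays. Mrc1, the mannose receptor of resident macrophages, differed by −0.50 (SE 0.13, adjusted p = 0.239), Itgam by −0.29 (SE 0.08, adjusted p = 0.245) and Adgre1 by −0.21 (SE 0.07, adjusted p = 0.291), and on 5 arrays by −0.45, −0.33 and −0.21. The higher one was C1qc, a complement subunit, at 0.21 (SE 0.09, adjusted p = 0.442) on 6 arrays and 0.27 on 5, while C1qa and C1qb differed by −0.02 and 0.02 on 6 arrays. None of the defining markers was at 0, since array values have no zero, and their part in the hydrolase values was not tested.

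Lysosomal membrane and transport proteins, 20 genes, had a median of −0.04 on 6 arrays. Against 5.64% and 5.53% of all genes, 1 was higher and 1 lower at an unadjusted p under 0.05. These were Tmem192 at 0.21 (SE 0.09, adjusted p = 0.417), with overlap, and Laptm4b at −0.21 (SE 0.07, adjusted p = 0.298), without. Igf2r, the receptor that carries hydrolases to the lysosome, differed by 0.16 (SE 0.07, adjusted p = 0.45), without overlap. On 5 arrays these differences were 0.18 for Tmem192, −0.24 for Laptm4b and 0.18 for Igf2r. The vacuolar ATPase is the proton pump that acidifies the lysosome. Of its 15 measured subunits, 0 were called at an unadjusted p under 0.05, against 11.2% of all genes, and the median was 0.00. The smallest adjusted p of that list was 0.446, for Atp6ap2 at −0.15 (SE 0.07), and on 5 arrays that gene differed by −0.14 (SE 0.07).

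Genes that control the pathway through mTORC1, AMPK and Tfeb numbered 36, with 5 higher and 3 lower at an unadjusted p under 0.05 on 6 arrays (5.64% and 5.53% of all genes) and 8 higher and 1 lower on 5 (8.55% and 6.36% of all genes). Prkaa1, a catalytic subunit of AMPK, which senses low energy, differed by −0.28 (SE 0.08, adjusted p = 0.256). Mlst8, a subunit of mTORC1, differed by 0.25 (SE 0.08, adjusted p = 0.272), and Flcn, which acts on the Rag proteins upstream of Tfeb, by 0.34 (SE 0.10, adjusted p = 0.273). None of these 3 overlapped between the groups, and on 5 arrays they differed by −0.33, 0.30 and 0.28.

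**Figure D4:**
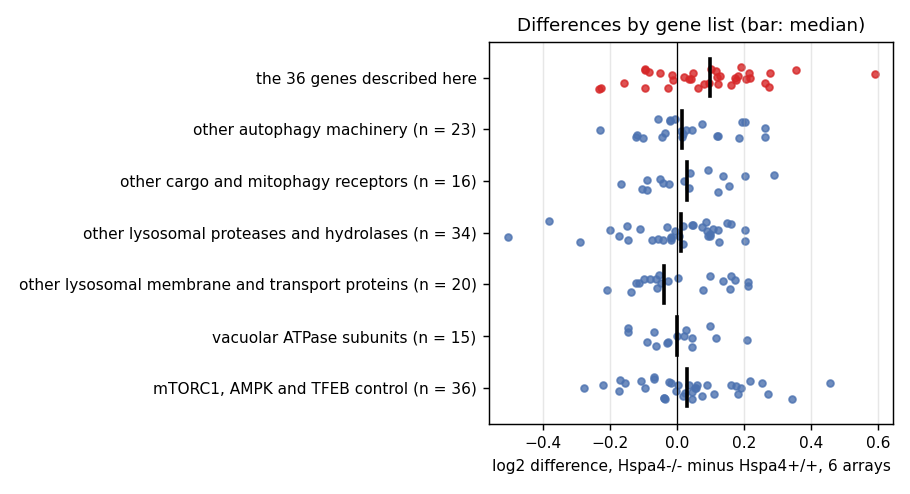
Differences in log2 value on 6 arrays for the 36 members and for each list of related genes, 1 point a gene. The medians of the related lists lie between −0.04 and 0.03 and that of the members at 0.10, and the lowest point is Ctsc at −0.50.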

How the data were processed

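Biotin-labelled cDNA was read on the Affymetrix Mouse Gene 1.0 ST array, per the labels' protocols. The authors deposited log2 values, 1 per probe set and array, made with R 2.13.0 and affy, per the submitters' processing notes. For background correction, normalisation and probe summary, the method is not given in the sources here, and signal over background is unknown. Of 21225 probe sets, 20239 carried 1 gene symbol in the platform annotation table, 0 several and 986 none. All value columns belonged to the 6 arrays. Groups came from the labels.

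The 2-group model was fitted with limma 3.58.1 (R 4.3.3, lmFit and eBayes) over all 20239 genes, with Benjamini-Hochberg adjustment and a threshold of 0.05. SEs are limma's moderated ones. The script was checked on simulated data. Values on every array are given for members with an unadjusted p under 0.05 on 6 or 5 arrays and for the largest difference in each direction within each role. From a related or marker list, up to 3 genes were named, by smallest p. Of the macrophage list, the higher marker C1qc and its fellow complement subunits C1qa and C1qb were named as well. Members and lists were chosen with earlier results of these data known. Alternatives without the dimmest 25% or 50% of genes were tried, as were quantile normalisation, subtraction of array medians, array weights, limma-trend, all probe sets, a replicate block and leaving out each array. P-values set each group difference against the spread between these arrays, as moderated by limma over all genes.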

Additional observations from a re-analysis of the deposited data

How the results depend on the processing

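On 6 arrays, the 7 members at an unadjusted p under 0.05 (11.2% of all genes) became 3 with array medians subtracted (10.3%). They became 15 with limma's array weights (18.1%), and leaving out 1 array gave 1 to 15 (6.17% to 14.9%). The 6 members without overlap (15.1% of all genes) became 3 with array medians subtracted (15.1%). Leaving out 1 array gave 8 to 24 (20.7% to 33.3%). The count past the adjusted threshold was 0 to 1 with 1 array left out. On 5 arrays, leaving out a further Hspa4+/+ array gave 0 to 6 members past the adjusted threshold. At an unadjusted p under 0.05 it gave 2 to 17 (10.4% to 20.4% of all genes), and 12 to 24 had no overlap (42.3% to 52.4%). The highest of these counts came without Hspa4+/+ replicate 2. Leaving out a further array labelled Hspa4-/- leaves 1 sample in that group, assumed to vary like the Hspa4+/+ arrays. The median difference of the members stayed above 0 in every setting run, from 0.05 to 0.15 on 6 arrays and from 0.06 to 0.16 on 5. The filters on low values, quantile normalisation, limma-trend and the fit of all probe sets moved no member count by over 1.5 times. With the 25% and 50% filters, the share of genes at an unadjusted p under 0.05 was 12.7% and 15.7% on 6 arrays. On 5 arrays it was 16.8% and 20.2%. With the replicate block, 6 members had an unadjusted p under 0.05 on 6 arrays (9.93% of all genes) and 5 on 5 arrays (10.6%). On either set 0 passed the adjusted threshold. On 6 arrays the block lowered the unadjusted limma p of Map1lc3a (0.039 to 0.00077) and Sqstm1 (0.073 to 0.0074). It raised that of Rb1cc1 (0.013 to 0.022) and Atg12 (0.048 to 0.098). Same-numbered arrays had deviations correlating at −0.17, 0.09 and −0.25. Deviations sum to 0 within each group, and 1 pair holds the array that goes against its label. These values therefore cannot decide whether the numbers pair the samples. Of the settings for single genes, including Hspa4, 353 kept direction and side of the threshold, 7 newly passed and 4 changed sign, all at differences near 0 that passed no threshold. With 1 array left out, Foxo1 ran from −0.063 to 0.040 on 6 arrays, positive without the array labelled Hspa4-/- replicate 3 (0.0074) or Hspa4+/+ replicate 2 (0.040). On 5 arrays it ran from −0.092 to 0.012, the highest without Hspa4+/+ replicate 2, and Lamp2 ran from −0.095 to 0.0049, the highest without the array labelled Hspa4-/- replicate 2. The alternatives for Hspa4 were added after its values were seen. Over all genes, the 0 past the adjusted threshold on 6 arrays became 2 with either low-value filter and with the block, 115 with array weights and 0 to 112 with 1 array left out. The 89 on 5 arrays became 156 and 167 with the filters, 36 with array medians subtracted, 134 with the block and 2 to 875 with 1 more array left out.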
